A study of Arabidopsis thaliana with 6 samples.

Results

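The genes described here are the Arabidopsis thaliana genes whose name in the authors' table of differentially methylated regions (DMRs) begins with PCMP-, for plant combinatorial and modular protein. They encode the E and H classes of pentatricopeptide repeat (PPR) proteins. All table entries with such a name were kept, in any sequence context, which gave 54 of 9213 DMRs, at 42 genes. Of these genes, 26 belonged to the E class, with 35 DMRs, and 16 to the H class, with 19 DMRs.

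PPR proteins are RNA-binding proteins encoded in the nucleus and imported into mitochondria or chloroplasts. Their repeats are short helical motifs, each of which contacts a base of an organelle transcript. The E class carries an extension behind the repeats, and the H class ends in a further domain, named DYW after its last amino acids, that has the features of a cytidine deaminase. Members of both classes direct C-to-U editing of organelle RNA, and most PPR genes of Arabidopsis have no intron. In plants CG methylation is found in the bodies of many expressed genes as well as in transposons, whereas CHG and CHH methylation (H is A, C or T) marks mainly transposons and repeats.

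Whole-genome bisulfite sequencing compared 3 libraries of the wild-type accession Col-0 with 3 of rbp-ko-1 (also labelled KO27), the only mutant line, defective in the RNA-binding protein gene RBP45D (AT5G19350). Plants of both genotypes were 26 days old, raised on soil in days of 16 h light and 8 h dark, and no treatment is labelled. Each DMR has a single deposited mean level per genotype over its 3 libraries, with no values per library and no read depth. Replicate error could therefore not be set against any difference, no difference was tested, and the shares below are described beside those of the whole table. A lower or higher level is that of the rbp-ko-1 mean against the Col-0 mean, and differences are in percentage points.

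CG regions made up most of the PCMP- entries, and they went in both directions. Of 38 CG DMRs at 31 genes, 24 were lower in rbp-ko-1 and 14 higher, so that 63.2% were lower. The exact Clopper-Pearson 95% interval of 46.0 to 78.2% covers counting error only. It treats the DMRs as independent, although 6 genes held 2 or more of them. Over the whole table, the share of lower CG DMRs was 74.7%, and it was 72.4% outside the mitochondrial genome and its chromosome 2 copy, where no PCMP- DMR lay. Both values are within that interval, but DMRs are not replicates and no test over regions was made. By gene, 17 had lower CG DMRs alone, 12 had higher ones alone and 2 had both. The single CHG DMR and all 15 CHH DMRs were lower, against 89.1% of CHG and 97.4% of CHH DMRs in the table, so the share of lower CHH regions was close to the background.

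**Figure D1:**
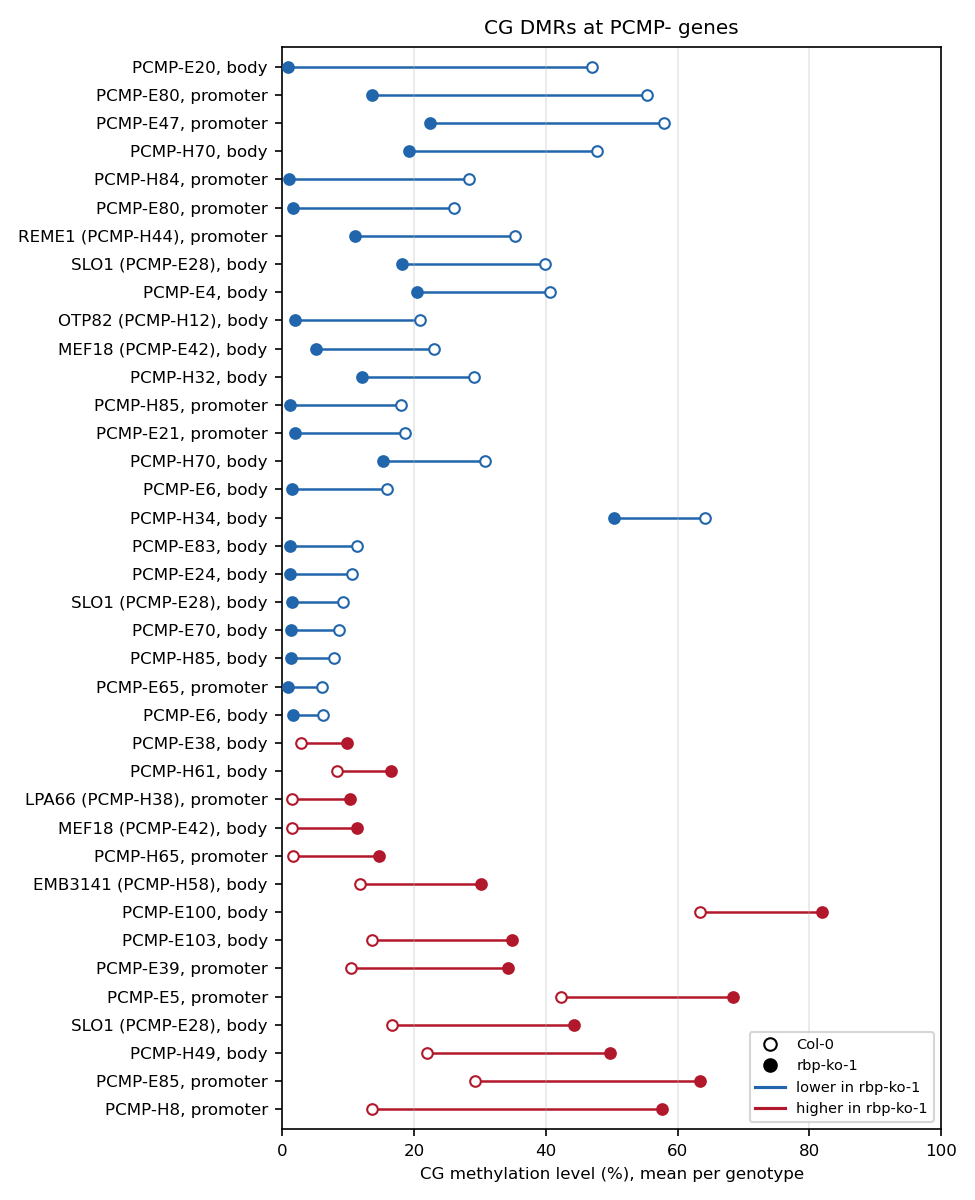
CG methylation level in percent at each of the 38 CG DMRs of PCMP- genes, with open points for the Col-0 mean and filled points for the rbp-ko-1 mean, ordered by difference and labelled by gene and by whether the DMR lay in the gene body or in the promoter only. Among the 24 lower DMRs (blue) 14 had under 2% in rbp-ko-1, and 4 of the 14 higher DMRs (red) exceeded 50% in rbp-ko-1. Over the whole table these shares were 33.6% and 63.5%.

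Of the 42 genes, 5 carried a RefSeq name given for an editing or related organelle role, OTP82, REME1, SLO1, MEF18 and LPA66. Their CG regions included 5 lower and 3 higher ones, and none had a CHG or CHH DMR. OTP82 (PCMP-H12, AT1G08070), needed for editing of chloroplast transcripts of the NDH complex, had an exonic CG DMR over 9 cytosines (chromosome 1, 2515582 to 2515664). Its level was 20.9% in Col-0 against 1.85% in rbp-ko-1, a difference of -19.0 points. LPA66 (PCMP-H38, AT5G48910), which acts in editing of a chloroplast photosystem II transcript, had a promoter CG DMR at 1.40% in Col-0 against 10.3% in rbp-ko-1. The same 7 cytosines (chromosome 5, 19835598 to 19835682) lay in an exon of the neighbouring gene TED7.

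Both SLO1 and MEF18 held regions of opposite direction within their exons. SLO1 (PCMP-E28, AT2G22410) is required for editing of mitochondrial transcripts of respiratory complex I, and its loss slows growth. At its first CG DMR (chromosome 2, 9509881 to 9510009, 13 cytosines) the level was 16.6% in Col-0 against 44.3% in rbp-ko-1. A second DMR, 780 bp further on, stood at 39.9% and 18.2%, and the last, 68 bp beyond that, at 9.26% and 1.40%. The first was thus higher in rbp-ko-1 and the other 2 were lower. MEF18 (PCMP-E42, AT5G19020), another mitochondrial editing factor, had 23.1% in Col-0 against 5.05% in rbp-ko-1 over 13 cytosines (chromosome 5, 6353296 to 6353426). A DMR of 7 cytosines lying 719 bp away had 1.44% and 11.4%. MEF18 is on the same chromosome arm as RBP45D, and RefSeq lists 37 protein-coding genes between them. Of these 37, 0 had an entry in the table, against 22% of all protein-coding genes. RBP45D had none either, and the reason for this gap was not tested.

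REME1 (PCMP-H44, AT2G03880), which raises the efficiency of mitochondrial editing, had a promoter CG DMR at 35.3% in Col-0 against 11.0% in rbp-ko-1 over 6 cytosines (chromosome 2, 1179437 to 1179517). This DMR was shared with the promoter of LSM7, a gene for an RNA-binding subunit of the Lsm ring. Within 1000 bp lay 4 more DMRs annotated to LSM7 and not to REME1. A CHG region 45 bp away had 19.3% and 4.72%, a CHH region 33 bp away had 4.61% and 0.677%, and another CHH region 966 bp away had 3.71% and 0.414%. A CG region 424 bp away went the other way, with 43.3% in Col-0 against 73.7% in rbp-ko-1. A lower and a higher CG region thus lay near each other here too, but the higher one is not a PCMP- region. Of the 6 PCMP- genes with 2 or more CG DMRs, only 2, SLO1 and MEF18, had both directions. How often nearby DMRs of the whole table differ in direction was not computed.

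**Figure D2:**
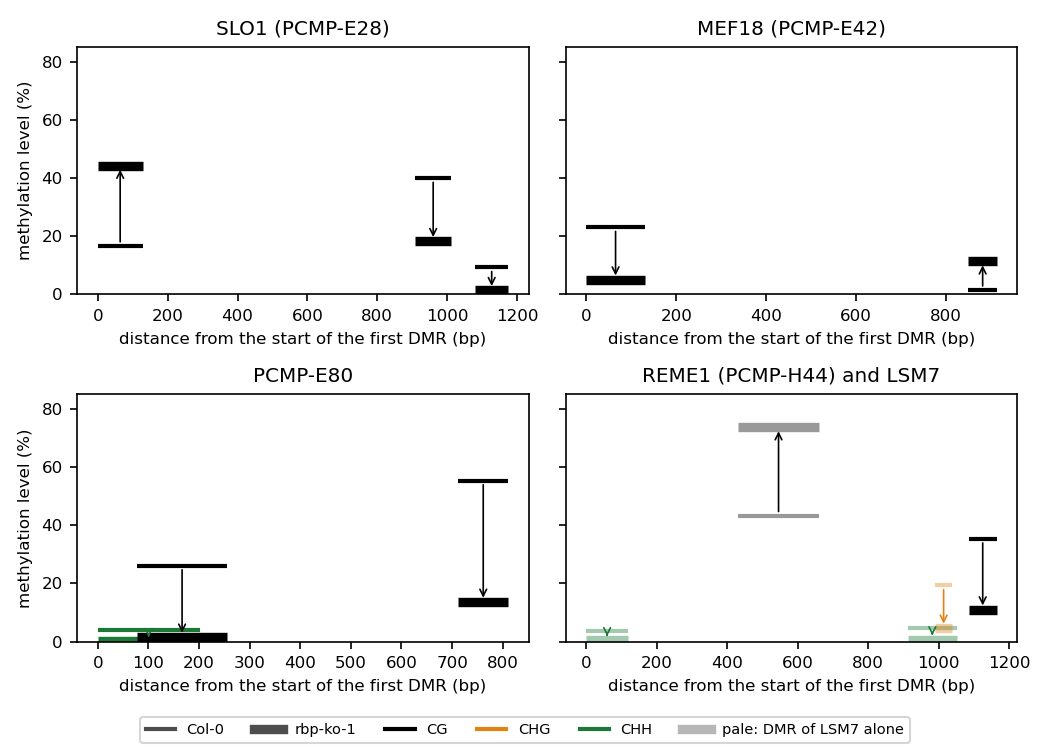
Methylation level in percent (thin bar Col-0, thick bar rbp-ko-1, arrow from Col-0 to rbp-ko-1) along SLO1, MEF18, PCMP-E80 and the REME1 promoter, against the distance in bp from the start of the first DMR shown. SLO1, MEF18 and the stretch at REME1 and LSM7 each hold a higher and a lower CG DMR, while all 3 DMRs of PCMP-E80 were lower. In the REME1 stretch the lower CG DMR is the one shared with LSM7, and the higher one is annotated to LSM7 alone.

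Across the lower CG regions the median was 24.6% in Col-0 against 1.73% in rbp-ko-1, and the median difference was -16.9 points, with quartiles of -24.4 and -9.96. Over all lower CG DMRs of the table the medians were 29.99% and 7.88%, and the median difference was -18.3 points. In rbp-ko-1, 14 of the 24 (58.3%) stood under 2%, compared with 33.6% of lower CG DMRs in the table. The latter share includes the mitochondrial genome and its chromosome 2 copy, where no PCMP- DMR lay, and was not computed without them. Of the other PPR genes, described further below, 15 of 37 lower CG DMRs (40.5%) were under 2%. The PCMP- regions were also small: 13 of 24 held fewer than 10 cytosines, against 41.8% in the table, and each level therefore rests on few sites.

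PCMP-E20 (AT5G08510) had the largest difference among them. At an exon and 3′ UTR (chromosome 5, 2754831 to 2754932, 12 cytosines) its level was 46.95% in Col-0 against 0.931% in rbp-ko-1, a difference of -46.0 points that ranked 67 among the 2174 lower CG DMRs. PCMP-E47 (AT2G03380) had 58.0% and 22.4% at a DMR in its promoter that was shared with the promoter of AT2G03370. PCMP-H84 (AT3G08820) went from 28.4% to 1.06% at a promoter DMR that also lay in AT3G08840, annotated as a D-alanine-D-alanine ligase family gene. PCMP-H70 (AT1G71420) had 2 lower exonic DMRs, at 47.8% and 19.2% over 7 cytosines and at 30.7% and 15.3% over 13. PCMP-H34 (AT3G26782) was the only lower CG DMR with more than 50% in rbp-ko-1, at 64.2% in Col-0 against 50.4% in rbp-ko-1.

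PCMP-H85 (AT3G13770) had a promoter DMR at 18.0% and 1.21% and an exonic one at 7.79% and 1.35%. PCMP-E6 (AT4G22760) had 15.9% and 1.40% in an exon and 6.23% and 1.60% at an exon and 3′ UTR. Apart from PCMP-E80, described with its CHH region, the remaining lower CG regions were at PCMP-E4, PCMP-H32, PCMP-E21, PCMP-E83, PCMP-E24, PCMP-E70 and PCMP-E65, with differences between -20.3 points at PCMP-E4 and -5.03 points at PCMP-E65.

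Of the higher CG regions, 10 of 14 had under 20% in Col-0, a share that was not computed for the whole table. The medians of these 14 were 12.7% in Col-0 against 34.5% in rbp-ko-1, with a median difference of 19.9 points. Higher CG DMRs of the whole table had medians of 31.5%, 63.0% and 23.0 points. Only 4 of the 14 (28.6%) exceeded 50% in rbp-ko-1, against 63.5% of higher CG DMRs in the table and 8 of 16 at other PPR genes. Each of the 14 lay at a different gene. PCMP-H8 (AT1G18485) had the largest difference, with 13.6% in Col-0 against 57.7% in rbp-ko-1 over 10 cytosines (chromosome 1, 6362178 to 6362268), and ranked 28 among 735. This promoter DMR also lay in an exon of SLP2, a protein phosphatase gene.

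PCMP-E85 (AT3G50420) came next with 29.2% in Col-0 against 63.4% in rbp-ko-1, but over only 4 cytosines, the smallest number in the table. PCMP-H49 (AT5G46460) stood at 21.9% and 49.8% in an exon. PCMP-E5 (AT1G77010) had 42.4% and 68.4% at a promoter DMR inside SKP2B, an F-box protein gene. PCMP-E39 (AT2G46050) had 10.4% and 34.2% at a promoter DMR shared with the promoter of AT2G46040. PCMP-E103 (AT5G47460) had 13.6% and 34.8% in an exon. EMB3141 (PCMP-H58, AT5G50390), named for the embryo defect of its mutants, had 11.9% and 30.1% in an exon. PCMP-E100 (AT4G08210) was the most methylated of the higher CG regions, with 63.4% in Col-0 against 81.9% in rbp-ko-1. At PCMP-H65, in an exon of the chloroplast splicing factor gene WTF1, the levels were 1.68% and 14.7%. PCMP-E38 (AT5G66500) and PCMP-H61 (AT5G66520), close to each other on chromosome 5, differed least, with 2.82% against 9.82% and 8.25% against 16.6%.

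**Figure D3:**
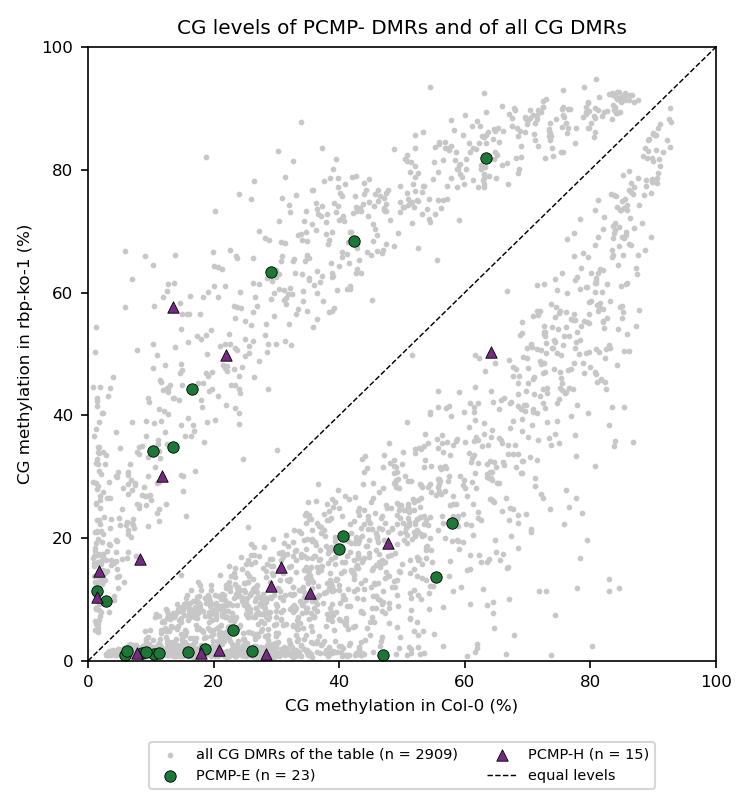
CG methylation in rbp-ko-1 (vertical axis, percent) against Col-0 (horizontal axis, percent) for the 23 PCMP-E (circles) and 15 PCMP-H (triangles) CG DMRs over all 2909 CG DMRs of the table (grey), with a dashed line at equal levels. Of the PCMP- points below the line, 14 of 24 are under 2% in rbp-ko-1, and of those above it 4 of 14 exceed 50%. Over the whole table these shares were 33.6% and 63.5%.

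By chromosome, 8 of 10 CG regions were lower on chromosome 1, 4 of 6 on chromosome 2, 8 of 9 on chromosome 3, 2 of 4 on chromosome 4 and 2 of 9 on chromosome 5. The share of lower CG DMRs in the whole table lay between 72.1% on chromosome 1 and 75.2% on chromosome 2 over the same chromosomes. The lower CG DMR of MEF18 was the last lower one of PCMP- genes on chromosome 5. The 7 beyond it, from MEF18 itself to PCMP-H61, were therefore higher by construction. Among all CG DMRs listed over the same stretch, 320 of 433 (73.9%) were lower. Because the stretch was set by the direction of the PCMP- DMRs, this contrast cannot show that they differ from the background. The split by chromosome was noticed in these data and was not tested.

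More CG regions lay in the bodies of the PCMP- genes than in their promoters only, as in the whole table. Of the 38, 24 (63.2%) were in an exon of the PCMP- gene, with or without its 3′ UTR. Of all pairs of a CG DMR and a gene in the table, 52.9% were annotated to the gene body. The latter value is within the exact 95% interval of the PCMP- share, 46.0 to 78.2%, which covers counting error only. The gene-body share was 64.2% at other PPR genes. At PCMP- genes it fell to 43.75% when only differences of at least 20 points were kept. In the gene body 16 of 24 were lower (72.7% of such pairs in the table), and in the promoter 8 of 14 (79.4% in the table). Of the 14 promoter regions, 9 (64.3%) also lay in the body of a neighbouring gene, near the 57.3% of promoter pairs in the table, and such a region cannot be assigned to either gene alone. These 9 included 5 of the 6 higher promoter DMRs, namely those of PCMP-H8, PCMP-E5, PCMP-E85, PCMP-H65 and LPA66, and the lower ones of PCMP-E21 (in SKIP, a splicing factor gene), PCMP-E65, PCMP-H84 and PCMP-H85. None of the 54 was annotated to an intron of its PCMP- gene, against 13.5% of all pairs of a DMR and a gene, and none to its transcription start or end site (11.1% of all pairs).

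CHH regions lay in promoters throughout and were lower without exception among those listed. All 15, at 11 genes, were annotated to the promoter only, against 69.4% of pairs of a CHH DMR and a gene in the table and 33 of 43 at other PPR genes. Only 1 of the 15, at PCMP-E48, also lay in the body of another gene (DIR23, a dirigent protein gene), where the table had 27%. The median level was 10.5% in Col-0 against 4.32% in rbp-ko-1, and the median difference of -5.83 points was next to the -5.82 points of all lower CHH DMRs. The regions were shorter than those of the table, with a median of 165 bp against 240 bp.

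PCMP-H42 (AT4G13650) had the largest CHH difference, with 37.8% in Col-0 against 24.4% in rbp-ko-1 over 152 cytosines (chromosome 4, 7944936 to 7945446). A second region in the same promoter, 625 bp away, had 12.3% and 5.31%, and both were shared with the promoter of PRR2, a pinoresinol reductase gene. PCMP-E13 (AT5G56310) had 32.9% and 21.3% over 19 cytosines. PCMP-E48 (AT2G21090) had 28.5% and 18.3% at one region and 12.9% and 6.12% at the other. With PCMP-E40 (AT5G15300), at 19.0% and 10.4%, these were the 4 regions over 15% in Col-0, where the table had 20.2% of its CHH DMRs. In these 4 the rbp-ko-1 level stayed above 0.5 times that of Col-0. The PCMP-E40 region was also annotated to the promoter of AT5G02365, and the first PCMP-E48 region to that of AT2G21105.

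PCMP-E99 (AT4G04370) carried the longest region, of 716 bp, and another of 468 bp, with 208 and 144 cytosines. Their levels were almost equal, at 8.41% in Col-0 against 3.02% in rbp-ko-1 and at 8.59% and 2.84%. PCMP-H41 (AT2G22070) had 10.5% and 4.32%, PCMP-H17 (AT5G44230) 11.1% and 5.31%, and PCMP-E58 (AT1G43980) 6.71% and 2.54%. PCMP-E27 (AT3G29230) had 6.27% and 2.16% and, 57 bp away, 3.57% and 0.768%. PCMP-E79 (AT3G28640) had 3.80% and 0.615% at a region shared with the promoter of AT3G28650. At levels this low, cytosines that escaped bisulfite conversion weigh most, and their part in these values was not tested.

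PCMP-E80 (AT3G28660), close to PCMP-E79 on chromosome 3, was the only gene with DMRs in more than 1 context. A CHH region (10741660 to 10741861, 41 cytosines) stood at 3.91% in Col-0 against 0.105% in rbp-ko-1. It overlapped by 125 bp a CG region at 26.1% and 1.62%. A further CG region, 455 bp away, stood at 55.3% and 13.6%, the second largest CG loss of the PCMP- genes at -41.7 points. All 3 were in the promoter and were shared with that of AT3G28670. Whether similar neighbouring PPR genes share reads was not tested. The 2 overlapping regions were the only ones of the 54 that overlapped a DMR of another context, where the table had 13.9%. The CHG region was at PCMP-E3 (AT1G03510), in an exon, with 4.69% in Col-0 against 0.398% in rbp-ko-1 over 11 cytosines (chromosome 1, 876401 to 876556). It was also annotated to the promoters of 10 other genes, among them genes for small nucleolar RNAs.

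**Figure D4:**
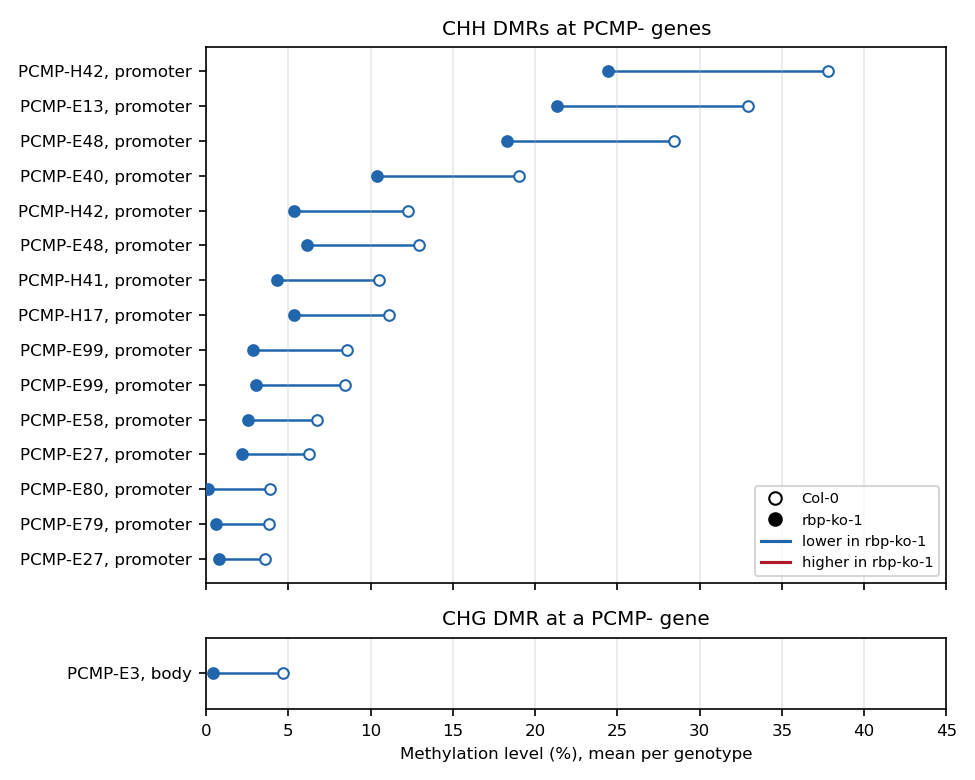
CHH (upper panel, 15 DMRs) and CHG (lower panel, 1 DMR) methylation level in percent at PCMP- genes, open points for the Col-0 mean and filled points for the rbp-ko-1 mean, ordered by difference. Every region was lower in rbp-ko-1, with CHH differences from -13.4 to -2.80 points.

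Both classes were found in each direction. In CG, 15 of 23 DMRs of the E class and 9 of 15 of the H class were lower, with median differences of -16.6 and -17.0 points. Among the lower ones the median rbp-ko-1 level was 1.60% in the E class and 11.0% in the H class, with 10 of 15 and 4 of 9 under 2%. Higher CG regions had median differences of 22.5 points in 8 E-class and 15.7 points in 6 H-class DMRs. CHH regions numbered 11 at 8 E-class genes and 4 at 3 H-class genes, with median differences of -5.40 and -6.57 points. The table's descriptions place 13 of the 42 proteins in mitochondria and 2 in chloroplasts and give no place for 27. CG DMRs were lower in 9 of 16 cases at the mitochondrial ones, 1 of 2 at the chloroplast ones and 14 of 20 at those with no place given, beside 74.7% over all CG DMRs.

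Other PPR genes, found by the words pentatricopeptide or PPR in the table's description and lacking a PCMP- name, had 98 DMRs at 70 genes. They include further editing factors that the table lists under other names. Their CG DMRs were lower in 37 of 53 cases (69.8%). The median difference was -20.6 points among these lower ones and 17.0 points among the 16 higher ones. All 43 CHH DMRs were lower, with a median of -6.56 points. Their CG regions were in the gene body in 34 of 53 cases. Of the CHH regions, 10 were in the gene body, where the PCMP- genes had 0 of 15. Both CHG DMRs were higher, at median levels of 0.495% in Col-0 against 2.97% in rbp-ko-1, where 10.9% of all CHG DMRs were higher.

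**Figure D5:**
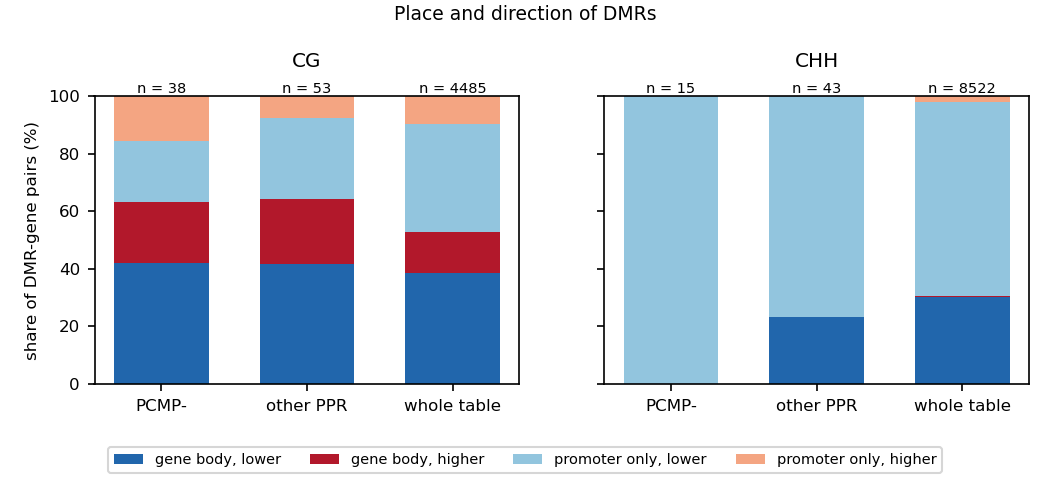
Share of DMR-gene pairs in percent by place (gene body or promoter only) and direction in rbp-ko-1, for PCMP- genes, other PPR genes and the whole table, in CG (left, n of 38, 53 and 4485) and CHH (right, n of 15, 43 and 8522). All CHH pairs of PCMP- genes are promoter only and lower, and their CG pairs divide between both places and directions.

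The proteins that work with PPR editing factors were covered by a list of 15 genes, the MORF family, organelle RRM proteins and the zinc-finger protein OZ1. Of these, 3 had a DMR, all lower, while 22% of protein-coding genes had one. MORF5 (AT1G32580) had promoter CHH levels of 19.8% in Col-0 against 10.6% in rbp-ko-1, and MORF6 (AT2G35240) of 14.3% and 7.49%. AT3G20930, whose RefSeq synonym is ORRM1, had 43.1% and 17.1% in CG at an exon, its 3′ UTR and the transcription end site.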

How the data were processed

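Whole-genome bisulfite sequencing covered 3 Col-0 and 3 rbp-ko-1 libraries, grouped by title. The tools named per the submitters' processing notes are Bismark, MethylDackel, FastQC and Trimmomatic, on build TAIR10. Which program called DMRs, at which thresholds and with which promoter length, is not given in the sources used here. Each level in the deposited table is a fraction averaged over a genotype's libraries, shown here in percent. The difference and the area statistic are scores deposited by the authors, and region length and cytosine number are other values of the same table. Depth is unknown. Conversion rates are not given, and unconverted cytosines raise low CHH levels.

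Of 18828 entries, 56 had a gene name beginning with PCMP-. They were joined into DMRs and DMR-gene pairs in Python 3.11.15 with pandas 2.3.3, after a test on simulated data. Gene body means any feature other than promoter. RefSeq names (TAIR10.1) matched all 42 loci. The members, lists and comparisons were chosen with earlier results of these data known. The naming rule took all CHG and CHH genes, genes with several DMRs, the 6 largest CG differences in each direction and the editing factors. Levels of some further genes outside this rule are given as well, namely PCMP-H34, PCMP-E103, EMB3141, PCMP-E100, PCMP-H65, PCMP-E38 and PCMP-H61. How many PCMP- genes lack a DMR was planned but is not analysed here.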

Additional observations from a re-analysis of the deposited data

How the results depend on the processing

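Of 88 values recomputed under 11 alternatives, 57 stayed within 1.5 times the reported value or, for shares, within its 95% interval. Counts and medians were taken by direction, so their sign could not change. Counts shrank under filters, as fewer DMRs were left. At least 10 points left 3 CHH and 0 CHG DMRs, with a CHH median of -11.6 points. At least 20 points left 14 genes, with 9 lower and 7 higher CG DMRs, 0 CHG and 0 CHH, 43.75% of CG DMRs in the gene body and a lower CG median of -27.4 points. At least 10 cytosines left 26 genes with 11 lower and 6 higher CG DMRs, and at least 100 bp left 25 genes with 14 and 5. The upper 50% by area statistic held 14 genes, with 9 lower and 4 higher CG, 3 CHH and 0 CHG DMRs. Without promoter-only DMRs, 20 genes, 8 higher CG and 0 CHH DMRs were left, and 100% of CG DMRs were in the gene body by construction. DMRs annotated to no other gene numbered 8 lower and 3 higher in CG, 8 in CHH and 0 in CHG, at 15 genes, with 100% of CG DMRs in the gene body. The share of lower CG DMRs ranged from 56.25% to 73.7%. No paired analysis was possible because the table holds 1 mean per genotype, and leaving out each replicate was not run for the same reason. Matching PCMP- genes by RefSeq symbol was not run either, since the RefSeq list used here carries no PCMP- names. Members were taken by gene name, and RefSeq names were added by locus.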
